A study of Mus musculus with 4 samples.

Results

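The 43 genes described here are mouse semaphorins, plexins, SLIT ligands, ROBO receptors, netrins and netrin receptors. They were given by a list of symbols and found through their Ensembl identifiers in a count table of 55487 genes. Statements on a family cover its listed genes only. All 43 were found. They comprise 25 ligands (20 semaphorins, 3 SLIT genes and 2 netrins) and 18 receptors (9 plexins, 4 ROBO genes, 3 UNC5 genes, Dcc and Neo1). The neuropilins, co-receptors of the secreted semaphorins, were left out of the list and are given with the signalling partners. Gene expression was compared between d4 and d2 of the differentiation of mouse embryonic stem cells (mESCs) towards cardiogenic mesoderm and endothelial cells (ECs), the window in which the study searched for EC regulatory elements.

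All cells came from ES-E14TG2a, also written E14-Tg2a, which is 1 established mESC line. The d4 cells had been aggregated for 48 h in serum-free medium, taken apart and aggregated anew for 40 h. During these 40 h the medium held Activin A at 8 ng/ml, BMP4 at 0.5 ng/ml and VEGF at 5 ng/ml. The d2 cells were the 48 h aggregates, which had received none of the 3 factors. Age, factors and reaggregation therefore changed together and cannot be told apart. Each day had 2 libraries of RNA from unsorted cells. The study describes them as coming from independent differentiation experiments.

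Semaphorins are secreted or membrane-bound ligands that act through plexins, large receptors whose intracellular part acts on small GTPases of the R-Ras and Rap families. Most secreted (class 3) semaphorins also need a neuropilin. SLIT proteins signal through ROBO receptors, and netrins through DCC, NEO1 and the UNC5 family. These families were first studied as guides of growing axons. They also steer sprouting vessels and migrating mesoderm cells, with PLXND1, UNC5B and ROBO4 as the receptors best known from the endothelium.

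The total counts were 11397439 and 16851485 in d4 replicates 1 and 2, and 12068584 and 14038796 in d2 replicates 1 and 2. A count of 3 stands for 0.177 to 0.254 CPM (counts scaled to the size of the library) in these libraries. Marker lists placed the 2 days as labelled. Of 14 endothelial markers tested, 12 were higher at d4 and none was lower, with summed levels of 1190 to 1508 CPM at d4 and 40.1 to 49.3 CPM at d2. All 10 primitive blood markers (373 to 534 CPM at d4, 6.83 to 8.01 CPM at d2) and all 10 early mesoderm markers (1183 to 1257 CPM at d4, 12.9 to 17.8 CPM at d2) were higher as well. Of 10 pluripotency markers 8 were lower (46.1 to 50.4 CPM at d4, 1185 to 1506 CPM at d2). Of 8 neural markers tested 7 were lower (79.4 to 91.2 CPM at d4, 330 to 346 CPM at d2), and Elavl3 had 0 counts in both d4 libraries, against 524 and 470 counts in the d2 libraries. Neurog2, Olig2 and Pou3f2 were also at 0 at d4, but had at most 5 counts in a d2 library. All 4 endoderm markers tested were higher, of which Sox17 and Sox7 are also endothelial genes, while Afp and Ttr were at 0 at d2 and at most 0.846 CPM at d4. Of 6 cardiomyocyte markers tested 1 was higher and 3 were lower. In such bulk RNA, fewer cells of a type and less RNA per cell cannot be told apart, and the part of these cell types in the guidance gene values was not tested.

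Guidance genes changed in both directions between d2 and d4, and the receptors past the test were higher at d4 with 1 exception. Of the 43 genes, 40 passed the filter on low counts, and 13 of them were higher at d4 and 9 lower (edgeR quasi-likelihood test, Benjamini-Hochberg adjusted p under 0.01 over all 14932 genes tested). These are 32.5% and 22.5% of the 40 genes, against 12.9% and 11.3% of all genes tested, and the median log2 fold change of d4 over d2 was 0.40, against -0.03 over all genes. Of 16 receptors tested 7 were higher and 1 was lower. This count depends on the test, since DESeq2 also called Robo1 lower. With a trend on GC content removed, Robo1 and Plxna1 were both called lower. Of 24 ligands tested 6 were higher and 8 were lower. The 22 genes past the test compare with 24.3% of all genes tested. Of the 22, 18 differed by at least 4-fold, and the smallest change was 1.64 on the log2 scale. In 20 of the 40 genes both d4 libraries lay above both d2 libraries and in 12 both lay below, and among all genes tested the shares were 35.8% and 35.2%, or 70.9% in either direction. The summed level of the 43 genes ran from 1414 to 1499 CPM in the d4 libraries and from 910 to 1200 CPM in the d2 libraries. The edgeR calls needed both d2 libraries. With d2 replicate 1 or d2 replicate 2 left out they were lost, among the guidance genes as among all genes tested. DESeq2 then called 10 higher and 5 lower in either case, against 7.31% and 5.09% of all genes without d2 replicate 1 and 6.86% and 5.03% without d2 replicate 2.

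**Figure D1:**
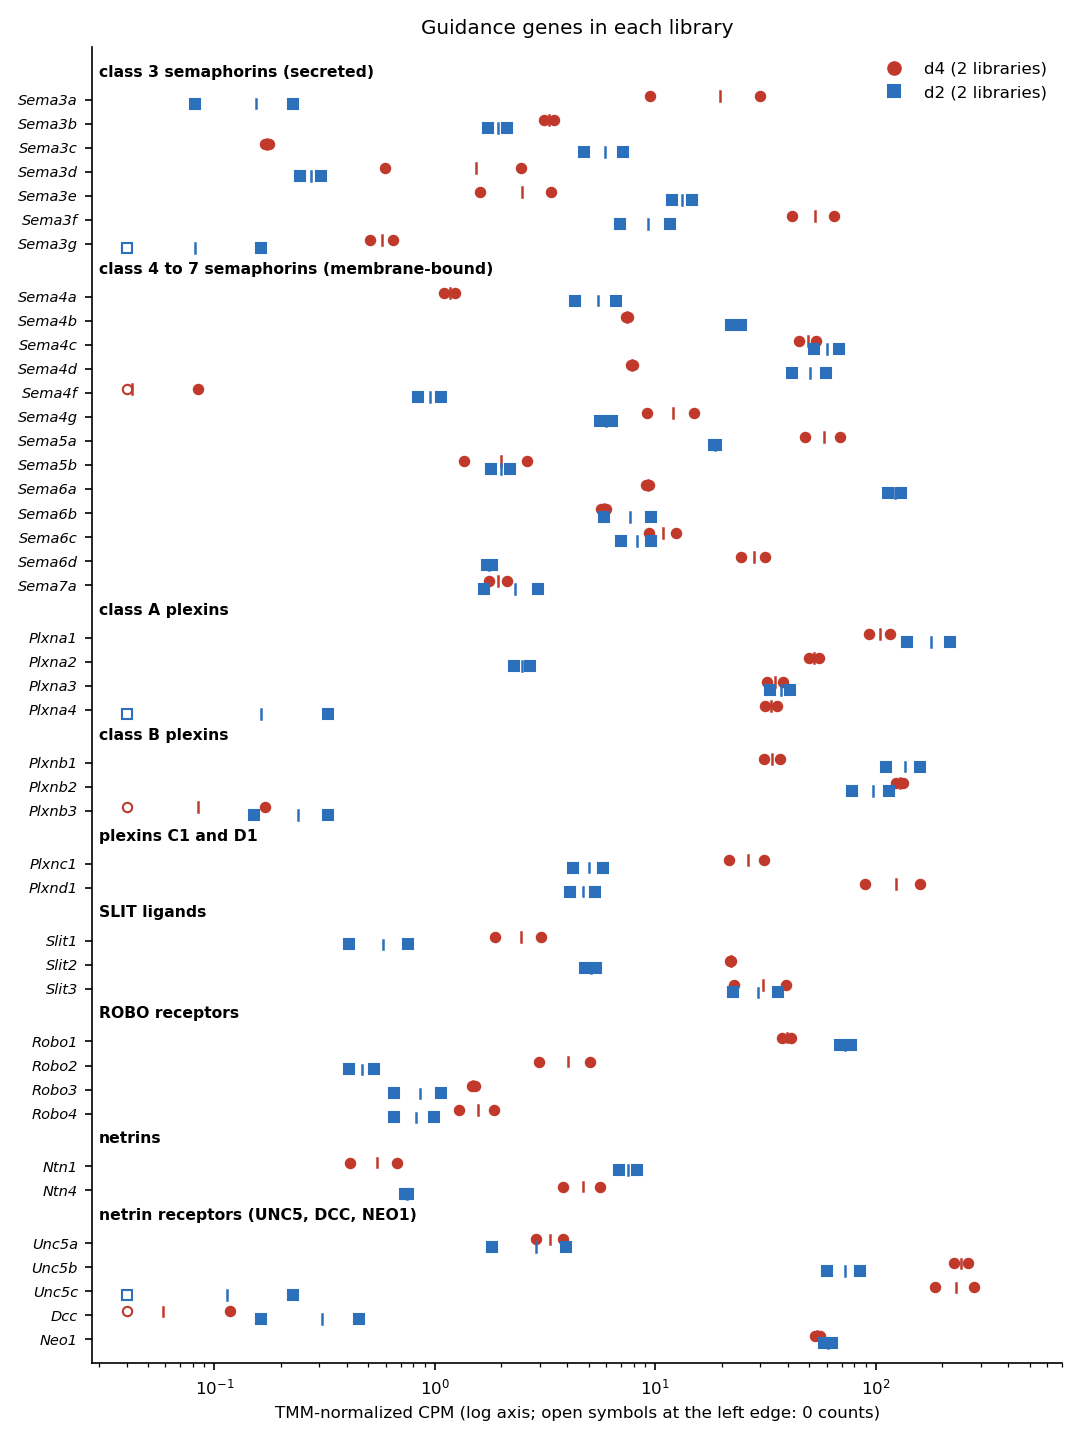
Level of the 43 guidance genes in each library, in TMM-normalized CPM on a log axis, grouped by family. Red circles are the 2 d4 libraries, blue squares the 2 d2 libraries, ticks their means, and open symbols at the left edge libraries with 0 counts. Unc5c and Plxna4 stand at or near the left edge at d2 and above 30 CPM at d4, while Sema6a, Sema4d and Ntn1 lie lower at d4.

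**Figure D2:**
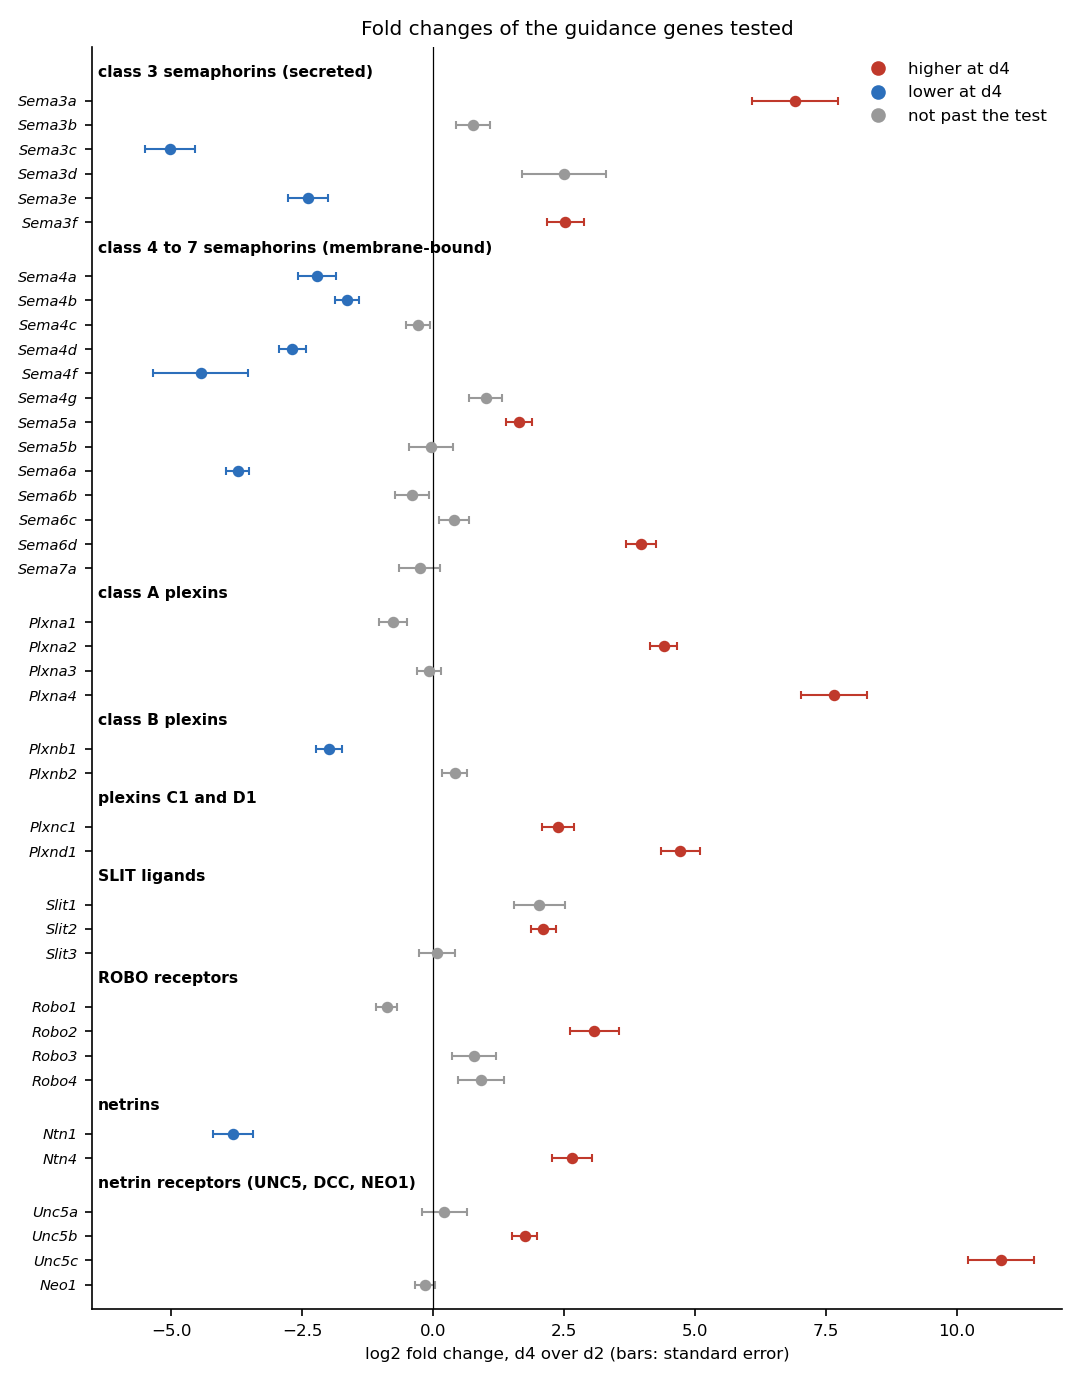
Log2 fold change of d4 over d2 for the 40 guidance genes tested, with the standard error as bars. Red points are the 13 genes higher at d4, blue points the 9 genes lower at d4, and grey points the 18 genes that did not pass the test.

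The secreted class 3 semaphorins split. Of 6 tested, Sema3f and Sema3a were higher at d4, and Sema3e and Sema3c were lower. This is 33.3% in each direction, against 12.9% higher and 11.3% lower among all genes tested. Sema3f (chr9:107681500-107710475, minus strand, GRCm38), which signals through NRP2 and is known to repel endothelial cells, had 64.8 and 41.8 CPM in the d4 libraries and 11.6 and 6.91 CPM in the d2 libraries. The days did not overlap, and the log2 fold change was 2.52 (SE 0.35, adjusted p = 0.00152). Sema3a (chr5:13125414-13602565, plus strand), the founding vertebrate semaphorin and a ligand of NRP1, had 112 and 510 counts in the d4 libraries and 1 and 3 counts in the d2 libraries. These are 9.48 and 30.0 CPM at d4 and 0.0818 and 0.228 CPM at d2, so that d4 replicate 2 lay far above d4 replicate 1 and both lay above d2. Its log2 fold change of 6.90 carried a large standard error of 0.82 (adjusted p = 0.000819).

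Sema3e (chr5:14025276-14256689, plus strand), which binds PLXND1 without a neuropilin, had 1.61 and 3.35 CPM in the d4 libraries and 11.9 and 14.7 CPM in the d2 libraries. Both d4 libraries were below both d2 libraries, with a log2 fold change of -2.39 (SE 0.38, adjusted p = 0.003). Sema3c (chr5:17574281-17730268, plus strand), which is required for the septation of the cardiac outflow tract in mouse, was close to the floor at d4. It had 0.169 and 0.176 CPM in the d4 libraries, which are 2 and 3 counts, and 4.74 and 7.14 CPM in the d2 libraries. The log2 fold change was -5.03 (SE 0.48, adjusted p = 0.000328). With DESeq2 and d2 replicate 1 or d2 replicate 2 left out, Sema3e no longer passed the test (adjusted p = 0.0161 and 0.0553).

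The promoter window of Sema3c is shown because this gene was low at d4 while its start lies in CpG-rich sequence, with CpG dinucleotides in capitals. It spans chr5:17574566-17574865 (plus strand, RefSeq, GRCm38.p6), from 250 bases before to 50 bases after the RefSeq start, and holds 42 CpG dinucleotides.
Sema3c: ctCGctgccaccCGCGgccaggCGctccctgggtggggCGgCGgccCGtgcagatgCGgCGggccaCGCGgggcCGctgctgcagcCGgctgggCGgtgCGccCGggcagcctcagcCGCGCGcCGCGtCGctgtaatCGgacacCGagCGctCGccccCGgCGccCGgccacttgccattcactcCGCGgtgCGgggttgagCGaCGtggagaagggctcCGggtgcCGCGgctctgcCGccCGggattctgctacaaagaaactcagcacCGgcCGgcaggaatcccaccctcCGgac

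The other class 3 genes were rare. Sema3b averaged 3.29 ± 0.25 CPM at d4 and 1.94 ± 0.27 CPM at d2 (SD, n = 2 each) and did not pass the test (log2 fold change 0.76, adjusted p = 0.104). Sema3d had 0.592 and 2.47 CPM in the d4 libraries and 0.245 and 0.304 CPM in the d2 libraries (log2 fold change 2.50, adjusted p = 0.0473). Sema3g, known as an arterial semaphorin, was not tested, with 6 and 11 counts in the d4 libraries and 2 and 0 counts in the d2 libraries. Per kilobase of exon, Sema3f made up 87.5% and 68.9% of the class in the d4 libraries and 47.6% and 30.7% in the d2 libraries. Sema3e and Sema3c took 27.2% and 14.2% of it in d2 replicate 1 and 36.6% and 23.1% in d2 replicate 2.

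Sema3d, Sema3a, Sema3e and Sema3c lie in this order on the plus strand of chromosome 5. The gap between Sema3a, which was higher at d4, and Sema3e, which was lower, is 423 kb, and Sema3e and Sema3c are 3.32 Mb apart. Sema3b and Sema3f are 72.3 kb apart on chromosome 9, both on the minus strand, and only Sema3f passed the test. Whether the 2 genes differed in their fold change was not tested.

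Among the 13 membrane-bound semaphorins (classes 4 to 7), 5 were lower at d4 and 2 higher. These are 38.5% and 15.4%, against 11.3% lower and 12.9% higher among all genes tested, so that the higher share was near that of all genes. Sema6a, a transmembrane ligand of PLXNA2 and PLXNA4, had the highest mean level of them at d2 per kilobase of exon, at 13.9 ± 1.3 CPM per kb, within the spread of Sema4c at 13.1 ± 2.4 (SD, n = 2 each). It had 9.39 and 9.06 CPM in the d4 libraries and 130 and 114 CPM in the d2 libraries. Both d4 libraries lay far below both d2 libraries, with a log2 fold change of -3.72 (SE 0.22, adjusted p = 7.24e-05). Sema4d (chr13:51685529-51793747, minus strand), the ligand of PLXNB1 and a known angiogenic signal, had 7.96 and 7.77 CPM in the d4 libraries and 59.4 and 41.6 CPM in the d2 libraries. It fell by 2.68 on the log2 scale (SE 0.26, adjusted p = 0.000366).

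Sema4b (chr7:80186841-80226527, plus strand) had 7.53 and 7.35 CPM in the d4 libraries and 24.4 and 22.1 CPM in the d2 libraries (log2 fold change -1.64, SE 0.23, adjusted p = 0.0016). Sema4a (chr3:88435959-88461182, minus strand), which has been described as a ligand of PLXND1 on endothelial cells, had 1.1 and 1.24 CPM in the d4 libraries and 6.62 and 4.33 CPM in the d2 libraries (log2 fold change -2.21, SE 0.37, adjusted p = 0.00338). In both genes the d4 libraries lay below the d2 libraries and close to each other. Sema4f (chr6:82911885-82939769, minus strand) had 1 and 0 counts in the d4 libraries and 13 and 11 counts in the d2 libraries. Its normalized level at d2 was 27.2 times that at d4, with an exact 95% counting interval of 4.44 to 1120 and an adjusted p of 0.0082. The call of Sema4f was lost with DESeq2 (adjusted p = 0.0236), with DESeq2 size factors in edgeR (0.0106) and in edgeR without d4 replicate 2 (0.0103). It was also lost with DESeq2 without d4 replicate 1 (0.0645) or d4 replicate 2 (0.269). With DESeq2, Sema4b lost its call without d2 replicate 1 or d2 replicate 2 (adjusted p = 0.0468 and 0.0229), and Sema4a lost it whichever of the 4 libraries was left out (adjusted p = 0.0317 to 0.246).

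Sema6d and Sema5a rose. Sema6d (chr2:124089969-124667770, plus strand), which binds PLXNA1 and acts in heart morphogenesis in chick, had 31.5 and 24.5 CPM in the d4 libraries and 1.72 and 1.82 CPM in the d2 libraries. The log2 fold change was 3.98 (SE 0.28, adjusted p = 0.000124), and the d4 libraries stood well clear of the d2 libraries. Sema5a (chr15:32244810-32696341, plus strand), a transmembrane semaphorin with thrombospondin repeats, had 47.8 and 68.7 CPM in the d4 libraries and 18.5 and 18.9 CPM in the d2 libraries. Again the days did not overlap (log2 fold change 1.64, SE 0.25, adjusted p = 0.00226), but the call was lost with DESeq2 without d2 replicate 1 (adjusted p = 0.0231) or d2 replicate 2 (adjusted p = 0.0152).

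Sema4c, a ligand of PLXNB2, was abundant on both days, with 53.5 and 45.0 CPM in the d4 libraries and 67.9 and 52.5 CPM in the d2 libraries. The days overlapped, and the log2 fold change was -0.29 (SE 0.22, adjusted p = 0.349). Sema4g had 15.0 and 9.18 CPM in the d4 libraries and 6.38 and 5.62 CPM in the d2 libraries (log2 fold change 1.00, SE 0.32, adjusted p = 0.0443). Sema6c had 12.4 and 9.36 CPM in the d4 libraries and 9.57 and 6.99 CPM in the d2 libraries, which overlapped (log2 fold change 0.39, SE 0.29, adjusted p = 0.325). Sema5b, Sema6b and Sema7a stayed under 10 CPM, also overlapped between the days and did not pass the test. Summed per kilobase of exon, the membrane-bound semaphorins stood at 27.2 and 24.1 CPM per kb in the d4 libraries and 50.2 and 40.0 CPM per kb in the d2 libraries. Sema6a held 3.93% and 4.27% of that sum at d4 and 29.6% and 32.4% at d2, and Sema4c held 42.8% and 40.5% at d4 and 29.5% and 28.6% at d2.

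Of 8 plexins tested 4 were higher at d4 and 1 was lower. These are 50% and 12.5%, against 12.9% and 11.3% of all genes tested, so that the lower share was near that of all genes. Plxnd1 (chr6:115954811-115995005, minus strand), the receptor that vessels use to read SEMA3E and SEMA3C, had 159 and 89.1 CPM in the d4 libraries and 5.32 and 4.10 CPM in the d2 libraries. The lower d4 library was still far above both d2 libraries, and the log2 fold change was 4.72 (SE 0.37, adjusted p = 0.000161). Plxnc1 (chr10:94790866-94944835, minus strand), the receptor of SEMA7A, had 31.1 and 21.6 CPM in the d4 libraries and 5.81 and 4.25 CPM in the d2 libraries, without overlap (log2 fold change 2.39, SE 0.30, adjusted p = 0.00109). Per kilobase of exon, Plxnd1 ranked 2 of the 43 genes at d4 and 24 at d2.

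The window around the RefSeq start of Plxnd1, the endothelial plexin, is shown with CpG dinucleotides in capitals. It spans chr6:115994956-115995255 (minus strand, GRCm38.p6) and holds 23 of them.
Plxnd1: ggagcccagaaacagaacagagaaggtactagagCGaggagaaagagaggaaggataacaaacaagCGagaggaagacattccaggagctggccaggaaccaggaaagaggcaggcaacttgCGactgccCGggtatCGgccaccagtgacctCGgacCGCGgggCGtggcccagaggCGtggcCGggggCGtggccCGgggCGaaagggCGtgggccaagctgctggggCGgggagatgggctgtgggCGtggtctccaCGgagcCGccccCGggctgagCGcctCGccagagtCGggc

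Of the 4 class A plexins, which pair with neuropilins or bind class 6 semaphorins directly, Plxna2 and Plxna4 were higher at d4. Plxna2 (chr1:194618218-194816869, plus strand) had 55.4 and 49.9 CPM in the d4 libraries and 2.70 and 2.28 CPM in the d2 libraries. Each d4 value was far above each d2 value (log2 fold change 4.40, SE 0.25, adjusted p = 6.87e-05). Plxna4 (chr6:32144268-32588192, minus strand) was close to absent at d2. It had 371 and 608 counts in the d4 libraries, which are 31.4 and 35.8 CPM, and 4 and 0 counts in the d2 libraries, which are 0.327 and 0 CPM. The log2 fold change was 7.65 (SE 0.63, adjusted p = 0.000184), and the call was lost with DESeq2 without d4 replicate 1 (adjusted p = 0.0939) or d4 replicate 2 (adjusted p = 0.0905).

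Plxna1 was, per kilobase of exon, the most abundant class A plexin on both days. It had 116 and 93.7 CPM in the d4 libraries and 218 and 138 CPM in the d2 libraries. Both d4 libraries were below both d2 libraries, replicate 1 was the higher library on both days, and the log2 fold change of -0.76 did not pass the test (SE 0.27, adjusted p = 0.0645). With the GC trend described later removed Plxna1 was called lower (log2 fold change -0.92, adjusted p = 0.00205), as it was without the filter on low counts (adjusted p = 0.00908). Plxna3, on the X chromosome, had 38.0 and 32.2 CPM in the d4 libraries and 41.1 and 33.1 CPM in the d2 libraries, which overlapped (log2 fold change -0.08, SE 0.22, adjusted p = 0.804). In length-normalized terms Plxna1 held 55.6% and 52.1% of the class A level in the d4 libraries and 81.7% and 77.9% in the d2 libraries. Plxna2 and Plxna4 held 14% and 9.63% of it in d4 replicate 1 and 14.6% and 12.8% in d4 replicate 2, against at most 0.676% for either gene at d2. The class sum itself was 23.1 and 19.9 CPM per kb at d4 and 29.4 and 19.6 CPM per kb at d2, which overlapped.

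Plxna2 is shown because the letters TGATAA, one of the forms of the motif of GATA factors, lie 54 bases before its RefSeq start. The window is chr1:194619579-194619878 (plus strand, GRCm38.p6), with these letters in capitals.
Plxna2: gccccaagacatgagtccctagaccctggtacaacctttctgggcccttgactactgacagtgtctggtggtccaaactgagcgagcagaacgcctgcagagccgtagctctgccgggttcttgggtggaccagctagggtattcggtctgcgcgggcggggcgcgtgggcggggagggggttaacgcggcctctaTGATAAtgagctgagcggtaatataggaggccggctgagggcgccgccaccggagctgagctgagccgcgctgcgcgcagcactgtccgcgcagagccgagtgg

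Of the class B plexins, Plxnb1 was lower at d4 and Plxnb2 did not pass the test. Plxnb1 (chr9:109095389-109119917, plus strand), the receptor of SEMA4D, had 36.9 and 31.1 CPM in the d4 libraries and 159 and 112 CPM in the d2 libraries. Both d4 libraries were below both d2 libraries (log2 fold change -1.99, SE 0.25, adjusted p = 0.00101). Plxnb2, which binds SEMA4C, had 134 and 124 CPM in the d4 libraries and 115 and 78.4 CPM in the d2 libraries. The days did not overlap, but the log2 fold change of 0.41 did not pass the test (SE 0.24, adjusted p = 0.217). Plxnb2 held 81.7% and 83.2% of the length-normalized class B level in the d4 libraries and 47.3% and 46.5% in the d2 libraries. Plxnb3 was not tested, at 2 and 0 counts in the d4 libraries and 4 and 2 counts in the d2 libraries.

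**Figure D3:**
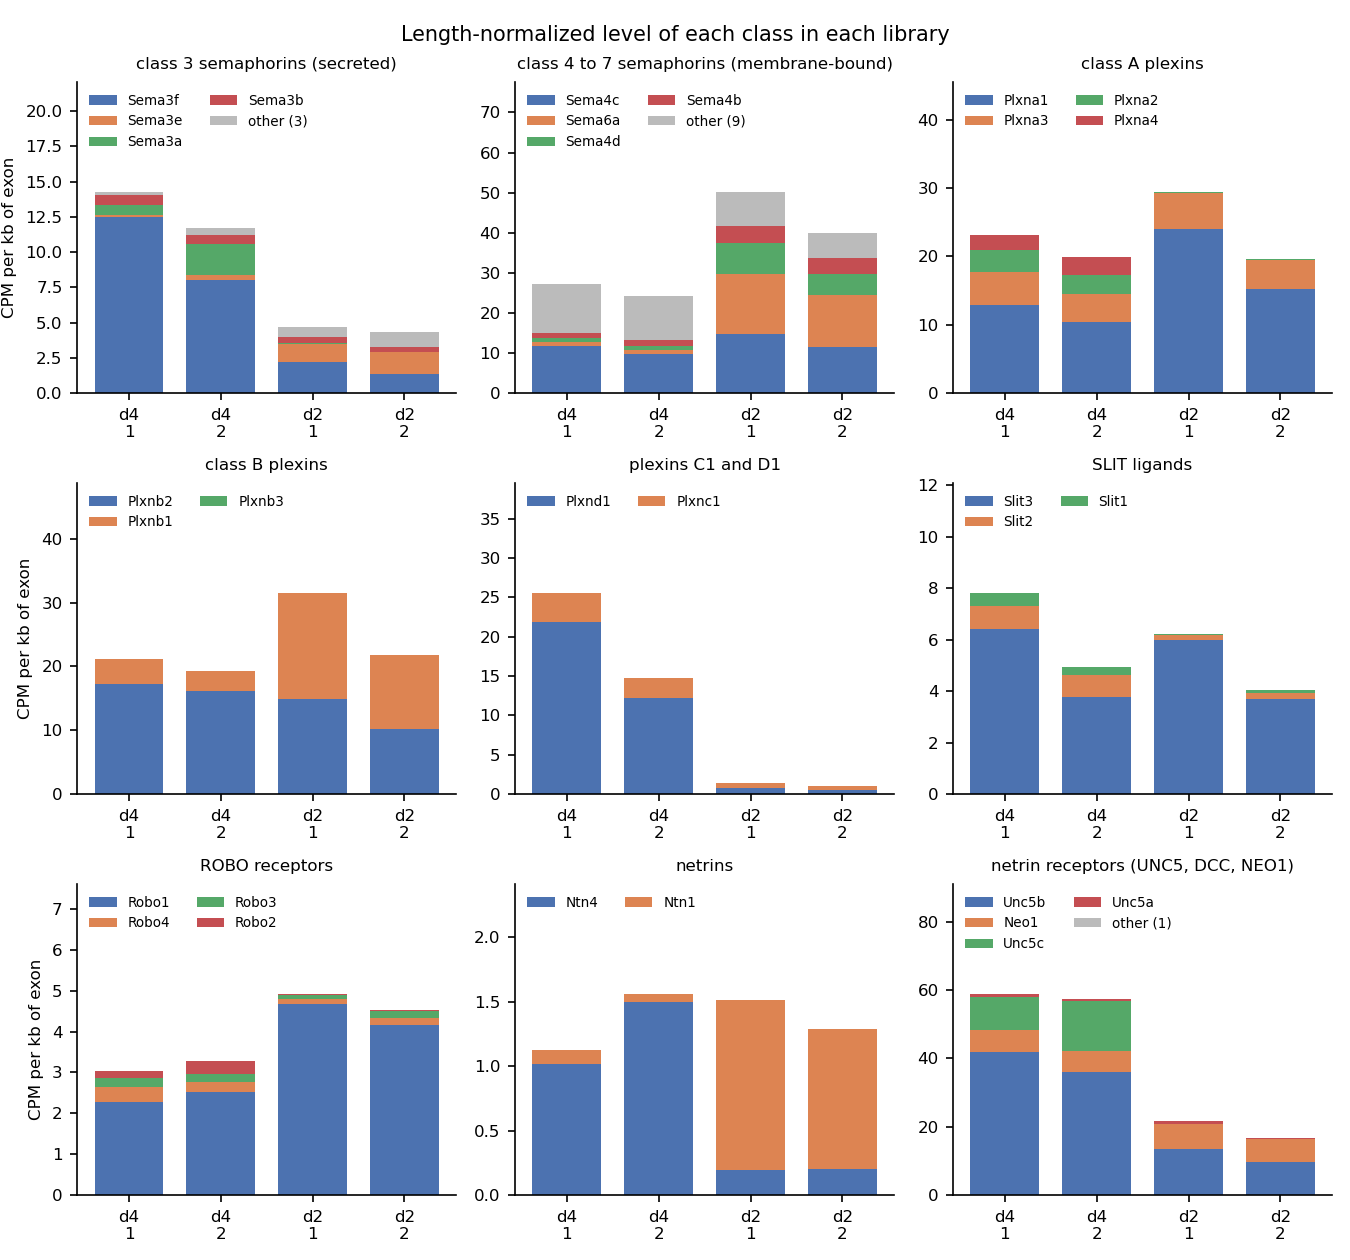
Length-normalized level (CPM per kb of exon) of 9 guidance gene families in each library, the d4 libraries left and the d2 libraries right, stacked by gene with the less abundant genes pooled in grey. The share of Plxnb2 among class B plexins is 81.7% and 83.2% at d4 and 47.3% and 46.5% at d2. Ntn4 takes the place of Ntn1 as the more abundant of the 2 listed netrins.

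The 3 SLIT genes encode secreted ligands of the ROBO receptors. Slit2 (chr5:47983138-48307733, plus strand) had 22 and 21.9 CPM in the d4 libraries and 4.82 and 5.39 CPM in the d2 libraries. The replicates of each day were close to each other and the days far apart (log2 fold change 2.10, SE 0.24, adjusted p = 0.000661). Slit3 had 39.0 and 22.8 CPM in the d4 libraries and 36.2 and 22.5 CPM in the d2 libraries. Its replicates differed more than its days (log2 fold change 0.07, SE 0.34, adjusted p = 0.885), and replicate 1 was the higher library on both days. Slit1 stayed rare, at 3.05 and 1.88 CPM in the d4 libraries and 0.409 and 0.759 CPM in the d2 libraries (log2 fold change 2.03, SE 0.48, adjusted p = 0.0153). Per kilobase of exon Slit3 remained the main SLIT gene, with 82.3% and 76.1% of the sum at d4 and 95.8% and 91.6% at d2. These shares depend on the merged exon lengths, which are 25433 bp for Slit2 and 6067 bp for Slit3. In CPM the 2 genes were close in d4 replicate 2.

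Robo1 made up 75.3% and 76.8% of the length-normalized ROBO level in the d4 libraries and 95.1% and 91.8% in the d2 libraries. It had 37.7 and 41.5 CPM in the d4 libraries and 77.2 and 68.6 CPM in the d2 libraries. Both d4 libraries were below both d2 libraries, and the log2 fold change of -0.88 missed the threshold (SE 0.20, adjusted p = 0.0127). DESeq2 called it lower (adjusted p = 0.00297), as did edgeR with upper-quartile factors, without the filter or with the GC trend removed (adjusted p = 0.00299 to 0.00893). Robo2 (chr16:73891839-74411825, minus strand) was higher, with 2.96 and 5.06 CPM in the d4 libraries and 0.409 and 0.532 CPM in the d2 libraries (log2 fold change 3.08, SE 0.46, adjusted p = 0.00219). That call was lost with DESeq2 without d2 replicate 1 (adjusted p = 0.0507), d2 replicate 2 (0.0358) or d4 replicate 2 (0.134). Robo4, known as the endothelial ROBO receptor, was rare and did not pass the test. It had 1.86 and 1.29 CPM in the d4 libraries and 0.654 and 0.987 CPM in the d2 libraries (log2 fold change 0.91, SE 0.44, adjusted p = 0.147). Robo3 averaged 1.5 ± 0.04 CPM at d4 and 0.859 ± 0.289 CPM at d2 (SD, n = 2 each) and did not pass either (log2 fold change 0.79, adjusted p = 0.183). The ends of Robo4 and Robo3 face each other 554 bp apart on chromosome 9, on opposite strands, and the counting used the strand of the reads.

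The 2 listed netrins changed places. Ntn1 (chr11:68209364-68400823, minus strand), the classical ligand of DCC and the UNC5 receptors, had 0.677 and 0.412 CPM in the d4 libraries and 8.26 and 6.83 CPM in the d2 libraries. Every d4 value was far below every d2 value (log2 fold change -3.81, SE 0.38, adjusted p = 0.000416). Ntn4 (chr10:93640681-93747207, plus strand), a netrin of basement membranes that binds laminins, had 3.81 and 5.59 CPM in the d4 libraries and 0.736 and 0.759 CPM in the d2 libraries. It rose by a log2 fold change of 2.65 (SE 0.38, adjusted p = 0.00193), a call that DESeq2 did not make whichever of the 4 libraries was left out (adjusted p = 0.0131 to 0.121). Of the length-normalized sum of both genes, Ntn4 held 90.4% and 95.8% in the d4 libraries and 13.0% and 15.7% in the d2 libraries. The sum was 1.13 and 1.56 CPM per kb at d4 and 1.51 and 1.29 CPM per kb at d2, which overlapped.

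The netrin receptors held the largest fold change and the highest level among the 43 genes. Unc5c (chr3:141465216-141834924, plus strand), a repulsive receptor of NTN1 in axons, had 2184 and 4760 counts in the d4 libraries and 0 and 3 counts in the d2 libraries. In CPM this is 185 and 280 at d4 and 0 and 0.228 at d2. The level at d4 was 2040 times that at d2, with an exact 95% counting interval of 698 to 9896, and the adjusted p was 6.87e-05. Ranked by CPM per kb, Unc5c ranked 43 at d2 and 4 at d4. Unc5b (chr10:60762593-60831581, minus strand), the UNC5 receptor of endothelial tip cells, had 262 and 226 CPM in the d4 libraries and 85.0 and 60.1 CPM in the d2 libraries. The days did not overlap (log2 fold change 1.75, SE 0.24, adjusted p = 0.00154). At 39.0 ± 4.1 CPM per kb (SD, n = 2) Unc5b had the highest mean level per kilobase of exon among the guidance genes at d4. In CPM Unc5c lay above it in d4 replicate 2.

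The start of Unc5c is shown because this gene had the largest change, with CpG dinucleotides in capitals, and that of Unc5b because it holds the letters TGATAA, here in capitals, 157 bases before the RefSeq start. The windows are chr3:141465314-141465613 (plus strand) and chr10:60831532-60831831 (minus strand) of GRCm38.p6, and that of Unc5c holds 24 CpG dinucleotides.
Unc5c: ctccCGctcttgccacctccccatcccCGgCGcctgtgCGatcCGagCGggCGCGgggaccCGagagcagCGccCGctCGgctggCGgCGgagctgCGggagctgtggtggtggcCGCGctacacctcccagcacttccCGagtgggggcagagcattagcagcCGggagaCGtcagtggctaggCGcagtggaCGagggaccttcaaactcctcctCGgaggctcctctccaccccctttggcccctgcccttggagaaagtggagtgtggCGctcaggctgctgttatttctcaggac
Unc5b: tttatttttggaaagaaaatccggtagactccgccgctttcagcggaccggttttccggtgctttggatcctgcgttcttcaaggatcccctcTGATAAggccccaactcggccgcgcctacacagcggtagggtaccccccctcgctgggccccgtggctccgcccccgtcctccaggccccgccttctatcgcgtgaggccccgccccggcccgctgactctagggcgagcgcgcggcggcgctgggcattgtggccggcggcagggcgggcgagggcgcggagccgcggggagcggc

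Neo1, a receptor shared by netrins and repulsive guidance molecules, did not pass the test, with 55.8 and 53.0 CPM in the d4 libraries and 63.1 and 58.0 CPM in the d2 libraries. The gap between the days was small beside the error (log2 fold change -0.16, SE 0.19, adjusted p = 0.56). Unc5a had 3.81 and 2.88 CPM in the d4 libraries and 3.92 and 1.82 CPM in the d2 libraries and did not pass the test (log2 fold change 0.22, adjusted p = 0.722). Dcc was not tested, with 0 and 2 counts in the d4 libraries and 2 and 6 counts in the d2 libraries. Summed per kilobase of exon, the listed netrin receptors stood at 58.8 and 57.5 CPM per kb in the d4 libraries and 21.8 and 16.7 CPM per kb in the d2 libraries. The listed netrins stood at 1.56 CPM per kb or less in every library.

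The order of levels changed with the day. After Unc5b, the highest levels at d4 were those of Plxnd1 (17 ± 6.8 CPM per kb), Plxnb2 (16.7 ± 0.9), Unc5c (12.1 ± 3.5) and Plxna1 (11.6 ± 1.8; SD, n = 2). Of these, Plxnd1 and Plxnb2 did not differ beyond their spread, nor did Unc5c and Plxna1. At d2 the order was Plxna1 (19.7 ± 6.2 CPM per kb), Plxnb1 (14.1 ± 3.5), Sema6a (13.9 ± 1.3), Sema4c (13.1 ± 2.4), Plxnb2 (12.5 ± 3.4) and Unc5b (11.6 ± 2.8). No neighbours in it differed beyond their spread, which includes a shift between the replicates that these genes share. Compared within each d2 library, Plxna1 lay above Plxnb1, Sema6a above Sema4c and Plxnb2 above Unc5b in both. The other neighbours changed order between the d2 libraries.

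Ligands and receptors that are known to bind each other were set side by side, in 22 pairs chosen with these values known. In 7 pairs the ligand and the receptor passed the test in opposite directions, and each had the ligand lower and the receptor higher at d4. These were Sema3c, Sema3e and Sema4a with Plxnd1, Sema6a with Plxna2 and with Plxna4, and Ntn1 with Unc5b and with Unc5c. Both genes were higher in 2 pairs, Sema3a with Plxna4 and Slit2 with Robo2. Both were lower in 1 pair, Sema4d with Plxnb1. Plxnb1 was the only receptor called lower and is in no other pair. A pair with the ligand higher and the receptor lower could therefore not occur, and the shared direction of the 7 pairs is no separate result. In 6 pairs only the ligand and in 2 pairs only the receptor passed the test, and in 4 pairs neither did. Ntn4, which was higher at d4, and Sema4b and Sema4f, which were lower, are in none of the 22 pairs. The counts therefore depend on the choice of pairs and describe these pairs only. Pairs that share a gene are not independent, and RNA levels do not say which cells held ligand and receptor.

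**Figure D4:**
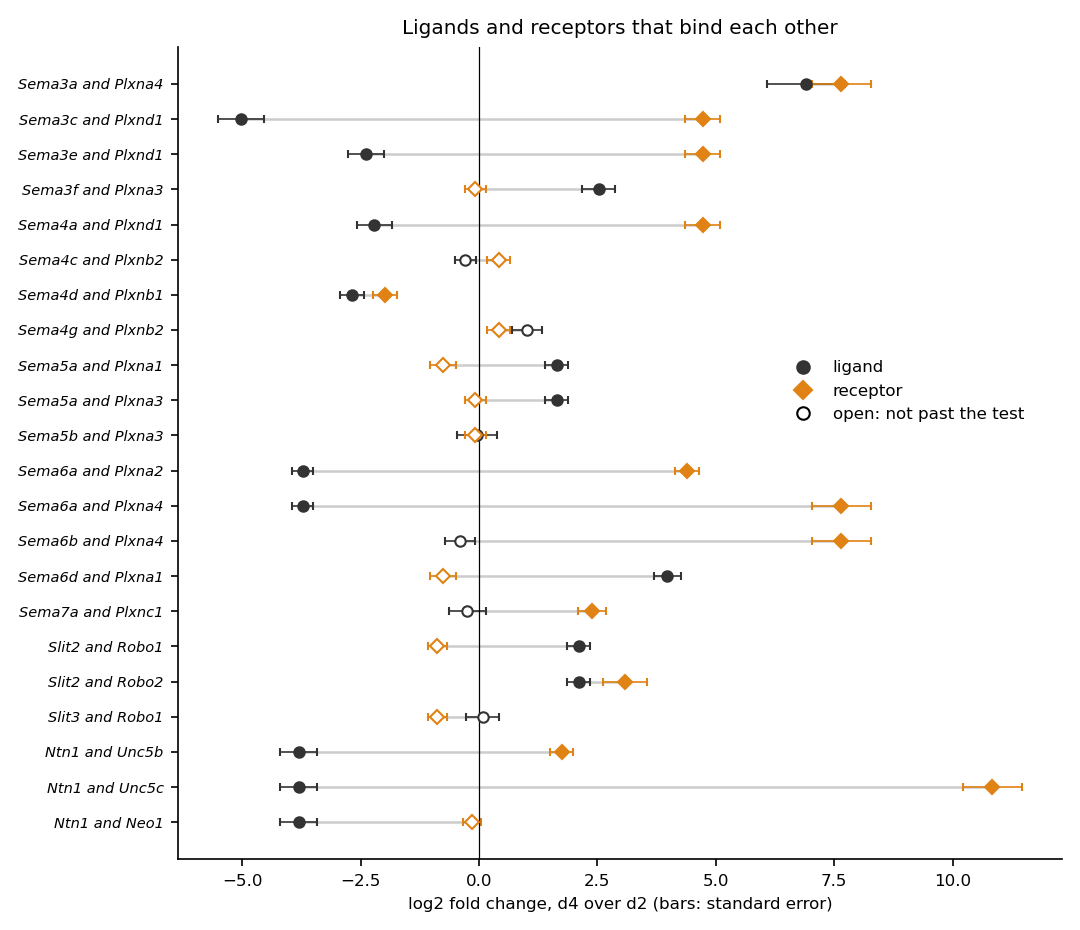
Log2 fold change of d4 over d2 of the ligand (circles) and the receptor (diamonds) in 22 pairs known to bind each other, with the standard error as bars and open symbols for genes that did not pass the test. In 7 pairs a filled circle left of 0 is joined to a filled diamond right of 0.

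Among 67 co-receptors, adaptors and intracellular effectors tested, 20 were higher at d4 and 5 lower, which are 29.9% and 7.46%, against 12.9% and 11.3% of all genes tested. Their median log2 fold change was 0.53, against -0.03 over all genes tested. The neuropilins stood out. Nrp1, the co-receptor of SEMA3A and of VEGF, had 2131 and 4490 counts in the d4 libraries and 1 and 2 counts in the d2 libraries. Its level at d4 was 1945 times that at d2 (exact 95% counting interval 665 to 9436, adjusted p = 3.96e-05). Nrp2, the co-receptor of SEMA3F, had 135 and 111 CPM in the d4 libraries and 4.82 and 6.38 CPM in the d2 libraries (log2 fold change 4.45, SE 0.26, adjusted p = 7.48e-05). L1cam, an adhesion molecule that associates with NRP1, was also higher (log2 fold change 3.28, SE 0.29), as were the heparan sulphate proteoglycan Sdc3 (2.67, SE 0.27) and the integrin subunit Itgb1 (1.34, SE 0.22). Met, a receptor kinase that associates with class B plexins, was lower at 2.03 and 3.29 CPM in the d4 libraries, against 25.3 and 31.8 CPM in the d2 libraries (log2 fold change -3.40, SE 0.32).

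Of 48 effectors tested 15 were higher (31.2%, against 12.9% of all genes) and 4 were lower (8.33%, against 11.3%). Rnd2, a small GTPase, had the smallest adjusted p among them (log2 fold change 2.65, SE 0.20, adjusted p = 0.000156). Micall2 (2.87, SE 0.37), Micall1 (1.67, SE 0.24) and Mical1 (1.29, SE 0.20) of the MICAL family, whose founding members oxidize actin downstream of plexins, were higher too. The same held for Rras (1.47, SE 0.24), a GTPase that plexins switch off, and for Arhgef12 (1.18, SE 0.19), an exchange factor bound by class B plexins. The kinase Pak1 (-2.04, SE 0.21) and Crmp1 (-2.35, SE 0.25), a collapsin response mediator, were lower. With d2 replicate 1 or d2 replicate 2 left out, the edgeR calls of the 67 genes were lost, as were those of all genes tested. DESeq2 then called fewer of the 67 in each direction than with all 4 libraries, and also fewer of all genes.

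The replicates of a day differed along the GC content of the genes. Over the 40 guidance genes, the log2 difference of replicate 2 over replicate 1 correlated with the GC content of the exons at Pearson's r of -0.74 (Spearman's rank correlation -0.69) at d4 and -0.56 (rank correlation -0.49) at d2. These are descriptions across genes that share their libraries. Over the tested genes, without those of low mean count, the rank correlation was -0.53 at d4 and -0.78 at d2. The 40 guidance genes had no such cut, so the sets are unlike. Sema3a and Sema3d, at 40.6% and 39.2% GC, lay highest in d4 replicate 2, by 1.61 and 1.44 on the log2 scale. Plxnd1, at 59.6% GC, was lower by 0.83 in the same library. Removing a trend on GC content from each library left 14 guidance genes higher and 11 lower, against 18.9% of all genes in each direction.

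**Figure D5:**
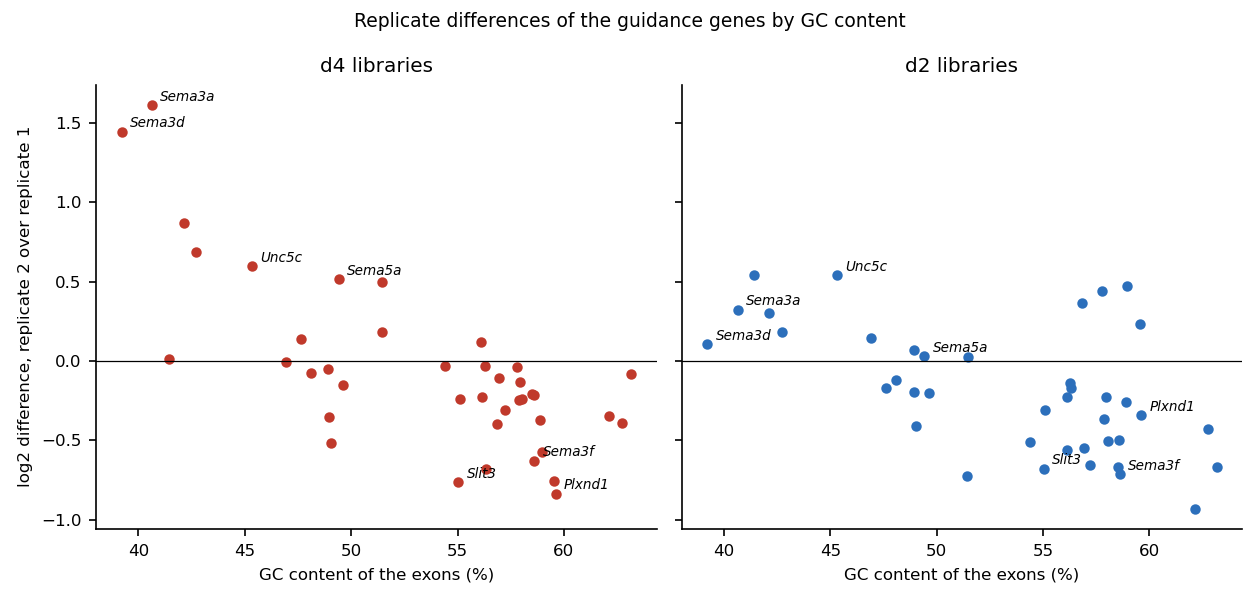
Log2 difference of replicate 2 over replicate 1 against the GC content of the exons for the 40 guidance genes tested, at d4 on the left and at d2 on the right. Genes of low GC content such as Sema3a, at 40.6%, lie above 0 and most genes of high GC content lie below it.

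Promoter windows of 300 bases from RefSeq (GRCm38.p6) were matched for 35 of the 43 genes. Sema3b, Sema3f, Sema6a, Plxna1, Plxna4, Slit1, Ntn1 and Dcc had no entry. The letters AGATAA or TGATAA, on either strand, were found in 4 of 11 genes higher at d4 (Plxna2, Unc5b, Sema6d and Robo2), in 0 of 7 lower genes and in 0 of 15 genes that did not pass the test. Among all 10717 tested genes with a window 11.8% held them, and among all 27025 genes 21.0% did. In Sema6d and Robo2 the letters lay in only 1 of several start windows. That of Robo2, chr16:75092721-75093020, lies outside the coordinates of the gene given above. A ratio of observed to expected CpG of at least 0.6 was reached by 9 of 11 higher genes, 3 of 7 lower genes, 12 of 15 genes that did not pass the test and 75.6% of tested genes, and the windows of Unc5c (0.69), Plxnd1 (0.72) and Sema3c (0.98) printed above are among them. These matches describe the letters of a window and were not tested.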

How the data were processed

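Stranded libraries were read from both ends at 75 bp. The authors used cutadapt for trimming, STAR for alignment to mm10/GRCm38 and featureCounts for the deposited raw counts per gene, without reads that map to more than 1 place or overlap more than 1 gene. The methods name both a GENCODE and an Ensembl release as annotation. Symbols, positions, exon lengths and GC content came from a GENCODE annotation of GRCm38, which lacked 260 of the 55487 identifiers.

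The study's filter was rebuilt. It tests the pooled counts of d4 and of d2 against 0.5 CPM (proportion test, one-sided, adjusted p under 0.05 on either day) and left 14932 genes. The comparison ran in edgeR 4.0.16 under R 4.3.3, by the two-sided quasi-likelihood test with TMM factors and no term other than day, with Benjamini-Hochberg adjusted p under 0.01. Every adjusted p comes from this test unless another is named. Each standard error (SE) was derived from this test, as the absolute log2 fold change divided by the square root of the F statistic. CPM values are TMM-normalized. CPM per kb divides them by the merged length of all annotated exons of a gene, which is not the length of the transcripts in use. Shares and ranks per kilobase depend on this length. Counting intervals are exact binomial at 95% and cover counting error only. Taken alone, a gene could reach no p below 0.333 in an exact two-sided permutation of 2 against 2 libraries. Replicates differed by far more than sampling noise (chi-square per degree of freedom 47.4 at d4 and 38.9 at d2). The alternatives were DESeq2 1.42.0, limma 3.58.1 voom, other size factors, filters and thresholds, the replicate number as a block, removal of a GC trend, and leaving out each library. Scripts were tested on simulated counts.

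The gene list, the partner and marker lists, the ligand and receptor pairs and the tests were chosen with earlier results of these data known. Guidance genes named with values are those past the test or with a mean of at least 10 CPM on either day, and of each partner list at most 8 genes with the smallest adjusted p, with Nrp1 and Nrp2. The remaining guidance genes are given in brief. Chromatin data were not used here, and a gene of the marker lists is not reported by name.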

Additional observations from a re-analysis of the deposited data

How the results depend on the processing

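The 22 guidance genes past the test kept their direction in each alternative that gave them a value, which were 16 for Sema4f and 18 for each of the others, and 14 of them passed in each of the 16 alternatives other than edgeR with a d2 library left out. The other 8 were Sema3e, Sema4a, Sema4b, Sema4f, Sema5a, Plxna4, Robo2 and Ntn4. The days overlapped in none of the 22 genes, so leaving out 1 library could not put the days in the other order. The alternative with a looser threshold on adjusted p is the main fit itself, and could neither change a direction nor lose a call. For these alternatives the kept direction is therefore no separate result. With 1 library left out, by edgeR or DESeq2, the counts ran from 0 to 15 guidance genes higher and 0 to 9 lower, from 0 to 22 partner genes higher and 0 to 7 lower, and from 0 to 2269 genes higher and 0 to 2475 lower in all. In these fits the lone library is assumed to vary like the other day's. The counts of 0 are those of edgeR without a d2 library, where the smallest adjusted p of a guidance gene was 0.0181 without replicate 1 and 0.0172 without replicate 2.

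The replicate numbers are not stated to pair the libraries, although the differences of replicate 2 from replicate 1 correlated at 0.54 between the days across genes. With the replicate block 16 guidance genes were higher and 11 lower, 33 partner genes were higher and 11 lower, and 3478 and 3496 genes were called in all. With the GC trend removed the lower partner genes were 10, and 2817 genes were higher and 2827 lower in all. With both the GC trend removed and the replicate block, 33 partner genes were higher and 12 lower, and 2982 and 3005 genes were called in all. Without the filter 2901 genes were higher and 2873 lower, and at an adjusted p under 0.05 they were 2991 and 2679. The cause of these shifts was not tested.

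The log2 fold changes that changed sign all belong to genes that did not pass the test. Slit3 was at -0.013 with upper-quartile factors, -0.069 with the GC trend removed and -0.074 with the replicate block added. Leaving out 1 library gave -0.36 to 0.45 for Slit3, -0.56 to 0.39 for Sema5b, -0.65 to 0.21 for Sema7a, -0.28 to 0.082 for Plxna3 and -0.29 to 0.86 for Unc5a. Of the genes that did not pass, Robo1 (adjusted p = 8.46e-05), Plxna1 (0.00069), Sema4g (0.00042), Slit1 (0.000466) and Sema3d (0.000971) passed with the replicate block, and each also passed without the filter. Robo1, Plxna1 and Sema3d passed with the GC trend removed, with and without the block (adjusted p = 0.000961 to 0.00323), and Robo1 with upper-quartile factors (0.00893) and DESeq2 (0.00297). Sema3d passed without d4 replicate 1 (1.57e-05), and Sema4g (0.00463) and Slit1 (0.000234) passed without d4 replicate 2. At this depth Dcc, Plxnb3 and Sema3g had too few counts to be tested.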
